A study of Homo sapiens with 24 samples.

Results

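The transcripts described here are 32 genes of the p53 pathway: regulators of p53 and its direct target genes. They were taken by symbol from a table of 12547 endogenous genes, and all 32 symbols were found, each in 1 row. PolyA RNA of U2OS cells, a human osteosarcoma line, was measured in 24 libraries, 2 for each of 12 groups. The groups cross 4 genotypes with 0, 4 and 8 h of a chase in 5 µg/mL actinomycin D, which blocks transcription, together with 200 µM sodium arsenite, an oxidative stressor. The genotypes were a non-targeting guide with empty vector (sgNS+EV), a QKI guide with empty vector (sgQKI+EV), and the QKI guide with either intact QKI7 (QKI7-WT) or QKI7 without its KH domain (QKI7-dKH). QKI is a STAR-family RNA-binding protein, QKI7 is one of its isoforms, and the KH domain is its RNA-contacting part. The series asks how QKI7 affects RNA stability, and no group was chased without arsenite. Whether the edited cells were a clone or a pool, and whether the 2 libraries of a group came from separate cultures, is not given in the sources used here. If they are technical repeats, the p-values measure only the spread between these libraries.

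p53 is a transcription factor that stress stabilises. Its targets halt the cell cycle, repair DNA or trigger cell death, and MDM2, itself a target, is the ubiquitin ligase that sends p53 for degradation. Several of these mRNAs are short-lived, so their levels follow transcription closely, and with transcription blocked a level shows mainly how much RNA is left. AU-rich elements in 3′ untranslated regions (3′ UTRs) are known to shorten the life of many mRNAs, and QKI is known to bind a core of the letters ACTAAC or ACTAAT (written as DNA).

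The sites below are examples from MDM2, CCNG1, PLK2 and GDF15, which are among the genes with genotype results further on and hold different 3′ UTR motifs. Not every gene with such results is shown. Each was read 5′ to 3′ on the RNA strand from the GENCODE 29 annotation of GRCh38. Capitals mark the QKI core in the first pair and the AU-rich core TATTTAT in the rest.
CCNG1, chr5:163444940-163444965, plus strand: gcagaggtaaACTAACcaactaccat
MDM2, chr12:68841756-68841781, plus strand: ttatttaaaaACTAACtggaaagatt
PLK2, chr5:58454043-58454069, minus strand: caaagagcagTATTTATtatcaaaatg
PLK2, chr5:58454067-58454093, minus strand: ataaacttttTATTTATtacagcccaa
GDF15, chr19:18389038-18389064, plus strand: caaacagctgTATTTATataagtctgt
GDF15, chr19:18389120-18389146, plus strand: tggaactgtgTATTTATttaaaactct
The PLK2 3′ UTR of 601 bases held 2 TATTTAT and no QKI core, and that of GDF15, 241 bases long, held 3 TATTTAT and no QKI core. The MDM2 3′ UTR is annotated at 10837 bases and held 4 QKI cores, and CCNG1 held 2 in 1346 bases. RRM2B and PMAIP1 also have genotype results further on, but no site of theirs is shown. RRM2B held 1 QKI core and 4 TATTTAT in 3631 bases, and PMAIP1 held neither motif. ACTAAC or ACTAAT was found in 12 of the 32 transcripts (37.5%), beside 33.2% of 11190 measured genes with an annotated 3′ UTR. TATTTAT was in 15 (46.9%, beside 31.6%), and the shorter ATTTA, which it contains, in 24 (75%, beside 68.3%). BBC3, BAX, PMAIP1, FDXR, TP53I3, NINJ1, BAK1 and DDB2 held neither a QKI core nor ATTTA. The median 3′ UTR was 1105 bases long with 43.5% GC, beside 1024 bases and 42.4% over all genes. Only the RNA strand was searched, a match is not a binding site, and the annotated 3′ UTR may not be the one used in U2OS cells.

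Values are a signal scaled to ERCC spike-in RNAs and compared within a gene only, since the unit before scaling is not known. Per library, the sum over endogenous genes lay between 690431 and 1367862 and that over the 38 ERCC rows between 11485 and 11940, and the 32 transcripts made up 0.133% to 0.199% of the endogenous sum. Read depth is unknown. In such bulk samples, fewer cells and less RNA per cell cannot be told apart. QKI itself, the targeted gene, had mean signals of 54.1, 52 and 23 at 0, 4 and 8 h in sgNS+EV and 34.3, 16.2 and 11.1 in sgQKI+EV, so its transcript was reduced but present. By limma with Benjamini-Hochberg adjustment, that difference was -0.63 log2 at 0 h (adjusted p = 0.0264) and -0.98 at 8 h (9.51e-05). Of the osteoblast lineage markers 6 of 11 were in the table, RUNX2, COL1A1 and SPARC among them, with none of 5 blood and none of 2 hepatocyte markers. The labels also call the line epithelial, and 2 of 4 epithelial markers were in the table, at signals of 3.08 to 8.39 for EPCAM and 1.89 to 10.6 for KRT14. Replicate libraries correlated across genes at Pearson r of 0.9889 to 0.9982. The lowest pair was QKI7-WT at 4 h.

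In control cells the p53 pathway transcripts spread from almost complete loss to no loss over 8 h of the chase. Between 8.6% (BBC3) and 101% (BAX) of the 0 h mean was left, with a median of 50.7%. The death inducer BBC3 (PUMA) and the stress cytokine GDF15 kept least, followed by SESN1 (20.9%) and the kinase PLK2 (25.2%). BAX, which permeabilises the mitochondrial outer membrane, and FDXR, a mitochondrial electron-transfer enzyme, did not pass the test. A change is a difference of log2(signal + 1) between groups, with the standard error (SE) of the limma fit, and a gene passed at an adjusted p below 0.05. From 0 to 8 h in sgNS+EV, 30 of 32 fell, where 88.2% of all genes fell by the same rule. The median change was -0.96 log2, beside -0.70 over all genes, and 22 of 32 lay below the all-gene median. These directions are read on the spike-in scale. The 2 other scalings take out much of a loss shared by most genes. A gene that falls less than most can then turn positive, so they cannot test whether it fell. Under scaling to library totals 4 of the 30 changes turned positive (DDB2, EI24, TP53I3 and XPC). Under quantile normalisation 8 did. The all-gene median was -0.23 under the first scaling and 0.05 under the second.

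**Figure D1:**
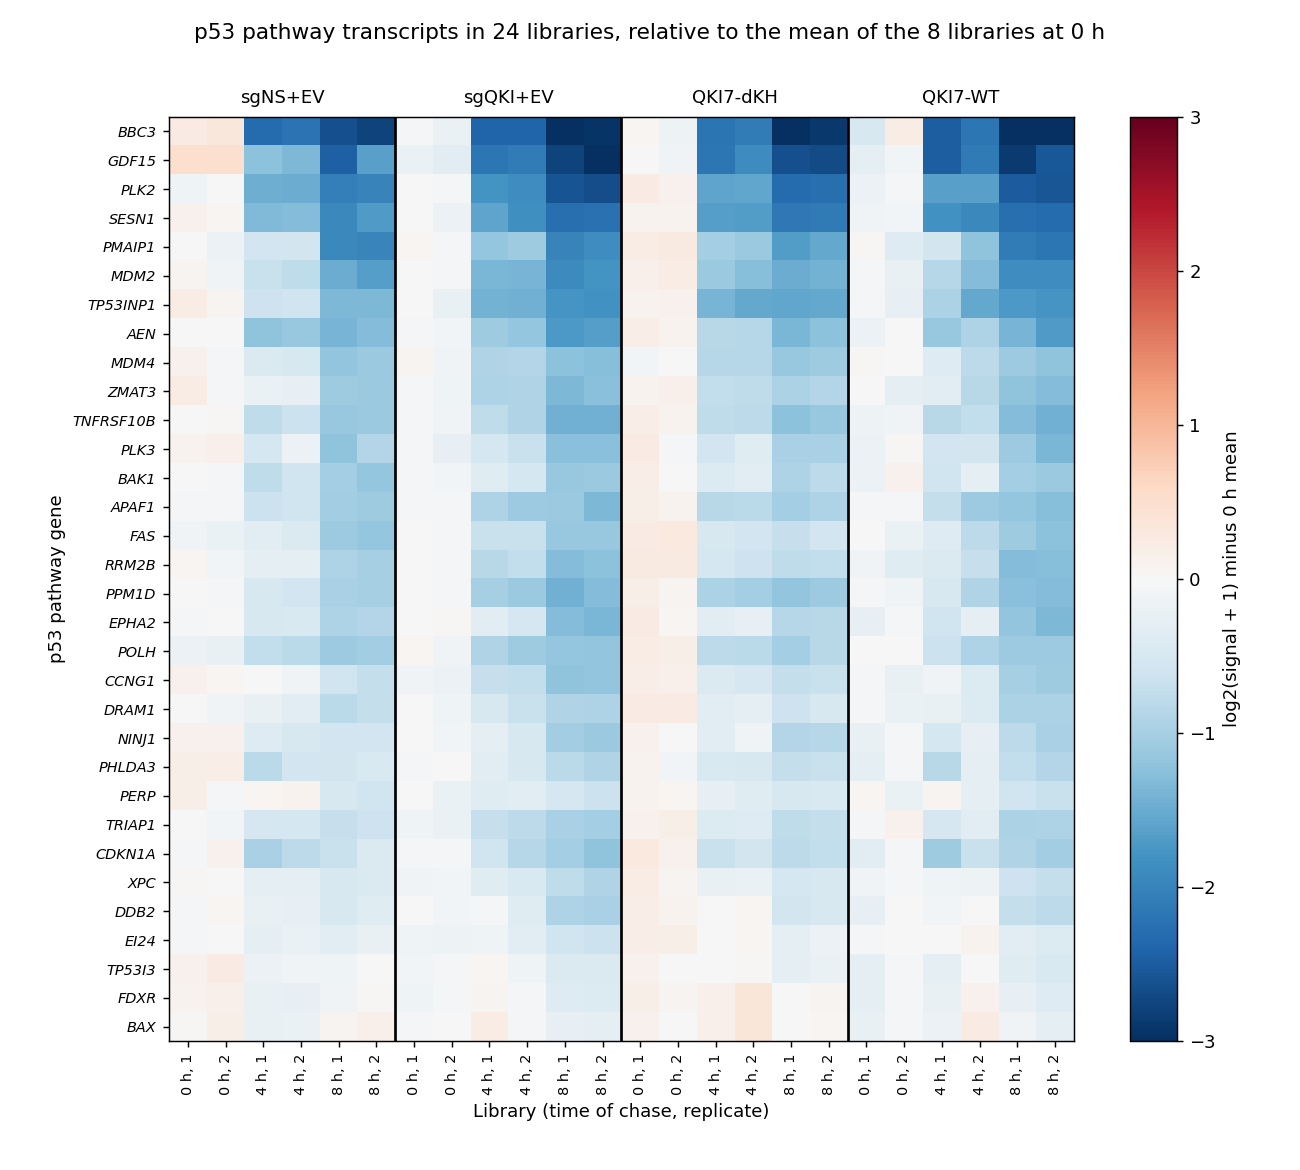
Each cell is the log2(signal + 1) of 1 gene in 1 of the 24 libraries minus that gene's mean over the 8 libraries at 0 h; rows are the 32 genes ordered by their 8 h change in sgNS+EV and columns are libraries by genotype, hours of chase and replicate. Blue deepens with time for the upper rows, while BAX, FDXR and TP53I3 at the bottom stay near 0 in most libraries.

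All 3 regulators of p53 fell over 8 h in sgNS+EV, as 88.2% of all genes did. MDM2 had signals of 46.5 and 40.4 at 0 h, 27.1 and 25.5 at 4 h, and 14.9 and 13.2 at 8 h in sgNS+EV. The libraries of the 3 times did not overlap, and the 8 h change was -1.56 ± 0.11 log2 (limma, adjusted p = 4.49e-11). MDM4, the MDM2 relative that masks p53's activation domain, had 15.1 and 13.3 at 0 h, 9.97 and 9.54 at 4 h, and 5.54 and 5.79 at 8 h. Its times were also separate, with a change of -1.19 ± 0.11 (3.87e-09). PPM1D, the phosphatase WIP1 that reverses p53 activation, had 58.5 and 57.3 at 0 h, 42.3 and 39.5 at 4 h, and 29.5 and 29 at 8 h. It fell by about as much as the median of the 32, -0.96 ± 0.10 (9.61e-09). Under library totals and quantile normalisation these 3 falls kept their direction and passed.

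All 5 genes grouped here under cell cycle arrest fell, where 88.2% of all genes did, with a median change of -1.15 log2 beside -0.7. The group includes the cytokine GDF15. PLK2, a kinase of the stress response, had signals of 208 and 230 at 0 h, 81.4 and 80.2 at 4 h, and 54.1 and 56 at 8 h in sgNS+EV. Most of its loss lay in the first 4 h, and the 8 h change was -1.97 ± 0.07 (limma, adjusted p = 5.27e-16). GDF15 had 28 and 27.8 at 0 h, 7.76 and 7.06 at 4 h, and 2.74 and 5.62 at 8 h. Its 8 h libraries differed from each other, both stayed below those at 4 h, and the change was -2.54 ± 0.19 (7.72e-11). CDKN1A, the p21 inhibitor of cyclin-dependent kinases, followed another course. It had 209 and 234 at 0 h, 110 and 124 at 4 h, and 135 and 158 at 8 h. Both libraries at 8 h lay above both at 4 h and below both at 0 h, and the change over 8 h was -0.59 ± 0.12 (9.3e-05), smaller than the all-gene median. Under library totals it was -0.08 (0.573) and under quantile normalisation -0.17 (0.107), so the fall of CDKN1A over 8 h did not pass on either scale. Because both scales take out much of the shared loss, this does not show that CDKN1A was kept. CCNG1, cyclin G1, kept 59.5% and PLK3 40.3% of the 0 h mean.

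Of 14 cell death genes 13 fell, a share close to the 88.2% of all genes, and this group held both extremes of the 32. BBC3 had signals of 21.7 and 23.2 at 0 h, 2.84 and 3.15 at 4 h, and 2.1 and 1.77 at 8 h. The 4 h libraries already lay far below those at 0 h, and the 8 h change was -3 ± 0.17 (limma, adjusted p = 9.58e-13). At signals this low, the 1 added before the log makes the fall smaller than that of the signal itself. PMAIP1 (NOXA), another BH3-only protein, had 68.1 and 59.6 at 0 h, 45.5 and 46.1 at 4 h, and 17 and 16.3 at 8 h. In sgNS+EV its loss came late, with 71.7% of the 0 h mean left at 4 h and 26.1% at 8 h. At 4 h the share left was 44.8% in sgQKI+EV, 39.2% in QKI7-dKH and 62.1% in QKI7-WT. BAX had 165 and 184 at 0 h, 138 and 141 at 4 h, and 170 and 181 at 8 h. The 8 h libraries lay within the range of those at 0 h, with a change of 0.01 ± 0.11 (0.93). TP53INP1, an autophagy and stress protein, kept 32.1% at 8 h, the nuclease AEN 38.3%, the apoptosome scaffold APAF1 42.9% and the death receptors TNFRSF10B and FAS 43.5% and 48.3%. EI24, a membrane protein of the endoplasmic reticulum, kept 83.6%.

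All 4 genes of DNA repair and nucleotide supply fell, and 5 of 6 in the remaining group, where 88.2% of all genes did. The damage sensors DDB2 and XPC kept 74.3% and 70.8% of their 0 h means, and the translesion polymerase POLH and the ribonucleotide reductase subunit RRM2B 50.9% and 51%. SESN1, a stress-induced inhibitor of the growth kinase mTORC1, kept 20.9%, whereas the quinone oxidoreductase TP53I3 kept 85.1%. FDXR kept 88.9%, and its change did not pass (limma, -0.17 ± 0.10, adjusted p = 0.131).

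Loss was also measured in each interval of the chase. From 0 to 4 h 29 of 32 fell in sgNS+EV, with 59.8% of all genes, at a median of -0.49 log2 beside -0.31. From 4 to 8 h 22 fell, with 64.9% of all genes, at a median of -0.44 beside -0.39. The 3 with the largest falls from 4 to 8 h were PMAIP1 (-1.41 ± 0.14, limma, adjusted p = 7.13e-08), ZMAT3 (-0.88 ± 0.12, 3.87e-06) and MDM2 (-0.86 ± 0.11, 1.34e-06). ZMAT3, a zinc-finger RNA-binding protein, had signals of 27.6 and 23 at 0 h, 20.6 and 19.9 at 4 h, and 10.7 and 10.4 at 8 h, with no overlap between times. CDKN1A and BAX rose from 4 to 8 h, by 0.32 ± 0.12 (0.0212) and 0.33 ± 0.11 (0.0156) log2, where 1.46% of all genes rose. Without sgNS+EV 4h replicate 1 or without sgNS+EV 8h replicate 2, neither rise passed: the adjusted p over the 4 removals ran from 0.0135 to 0.206 for CDKN1A and from 0.0328 to 0.0875 for BAX. Both rises passed under library totals (0.47 and 0.48) and quantile normalisation (0.45 and 0.44). In the other 3 genotypes the means of both genes were lower at 8 h than at 4 h, a change that was not tested. CDKN1A went from 130 to 99.3 in sgQKI+EV, from 140 to 127 in QKI7-dKH and from 119 to 109 in QKI7-WT. BAX went from 172 to 135, from 194 to 166 and from 166 to 140. Shares of the 0 h mean for the 3 largest falls follow, for sgNS+EV and then these genotypes in the same order. PMAIP1 went from 71.7% to 26.1%, 44.8% to 24.9%, 39.2% to 26.7% and 62.1% to 24.4%. ZMAT3 went from 80% to 41.7%, 53.9% to 40.5%, 52.4% to 46.2% and 73.3% to 43.4%. MDM2 went from 60.4% to 32.4%, 38.1% to 26.7%, 36.9% to 30.5% and 51.4% to 28.3%. Across genes the sgNS+EV change from 4 to 8 h rose with the GC content of the 3′ UTR, with a Spearman's rho of 0.66 over the 32 genes and 0.54 over 11190 genes, given as a description since all share the same libraries. GC was 54.6% in CDKN1A and 56.5% in BAX, and 35.7%, 35.7% and 41.3% in PMAIP1, ZMAT3 and MDM2, and its part in these changes was not tested. BAX had fallen from 0 to 4 h (-0.32 ± 0.11, 0.0214), but this turned to 0.05 under library totals and 0.04 under quantile normalisation. In all, 9 of the 29 falls from 0 to 4 h turned positive on each of these scales, and 6 of the 22 from 4 to 8 h did under quantile normalisation.

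**Figure D2:**
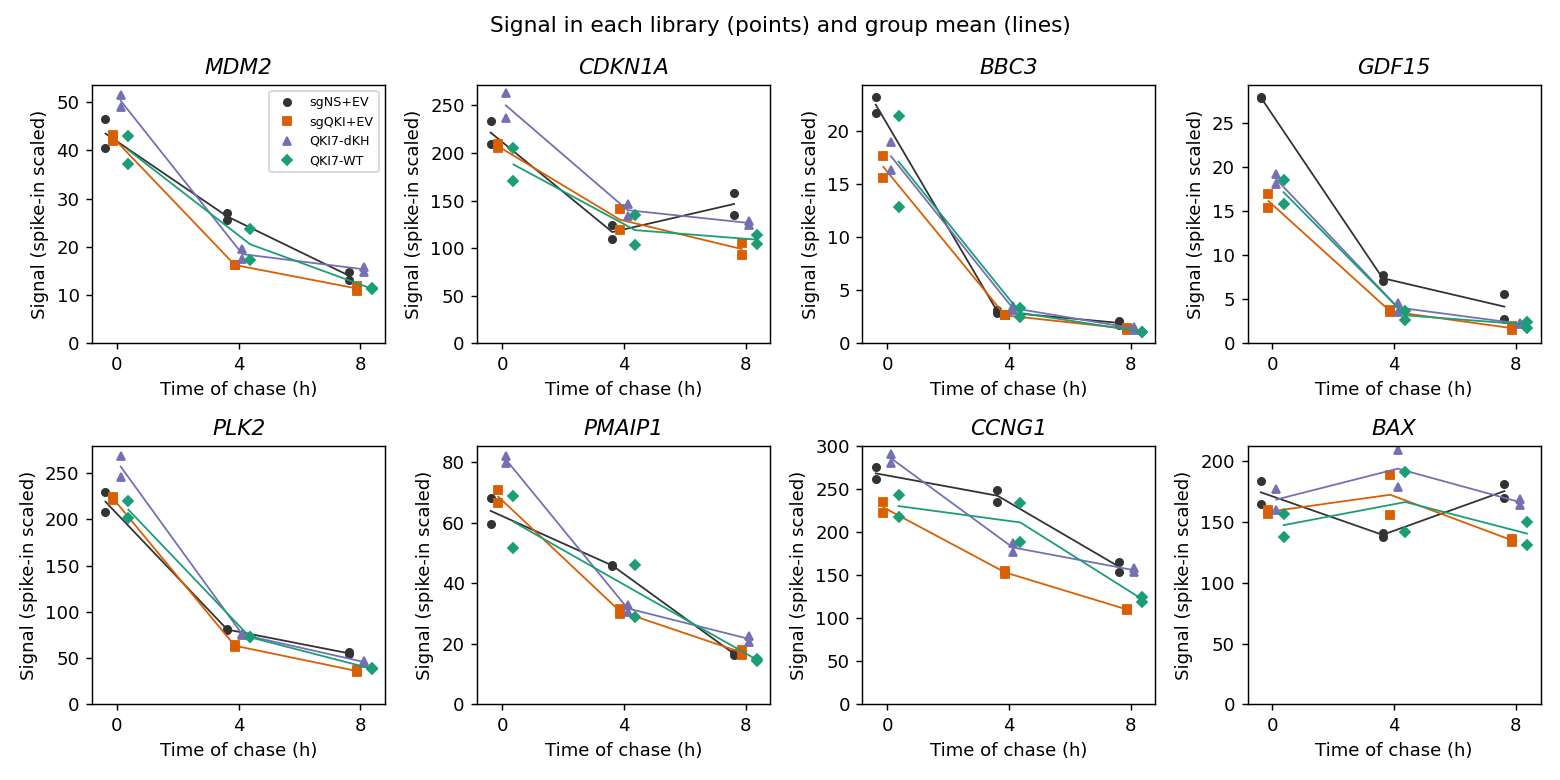
Signal, scaled to spike-ins, against hours of chase for 8 genes; points are single libraries, lines join group means, colours are genotypes, and points are shifted sideways around 0, 4 and 8 h so that genotypes can be told apart. BBC3 and GDF15 drop before 4 h, PMAIP1 drops later in sgNS+EV than in sgQKI+EV, and BAX stays between 131 and 209.

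In the other 3 genotypes, too, BBC3 lost most and BAX least. Over 8 h, 31 of 32 fell in sgQKI+EV (90.5% of all genes), 30 in QKI7-dKH (90.6%) and 30 in QKI7-WT (90.0%). BBC3 had 8.4%, 8.02% and 6.39% of its 0 h mean left, and BAX 85.2%, 98.4% and 95.4%. The median shares left were 41.4%, 49.2% and 45.8%, in that order of genotypes. The median changes were -1.13, -1 and -1.07 log2, beside -0.82, -0.77 and -0.77 over all genes. On the library-total scale 4, 3 and 2 of these falls turned positive in sgQKI+EV, QKI7-dKH and QKI7-WT, and under quantile normalisation 8, 7 and 7 did.

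**Figure D3:**
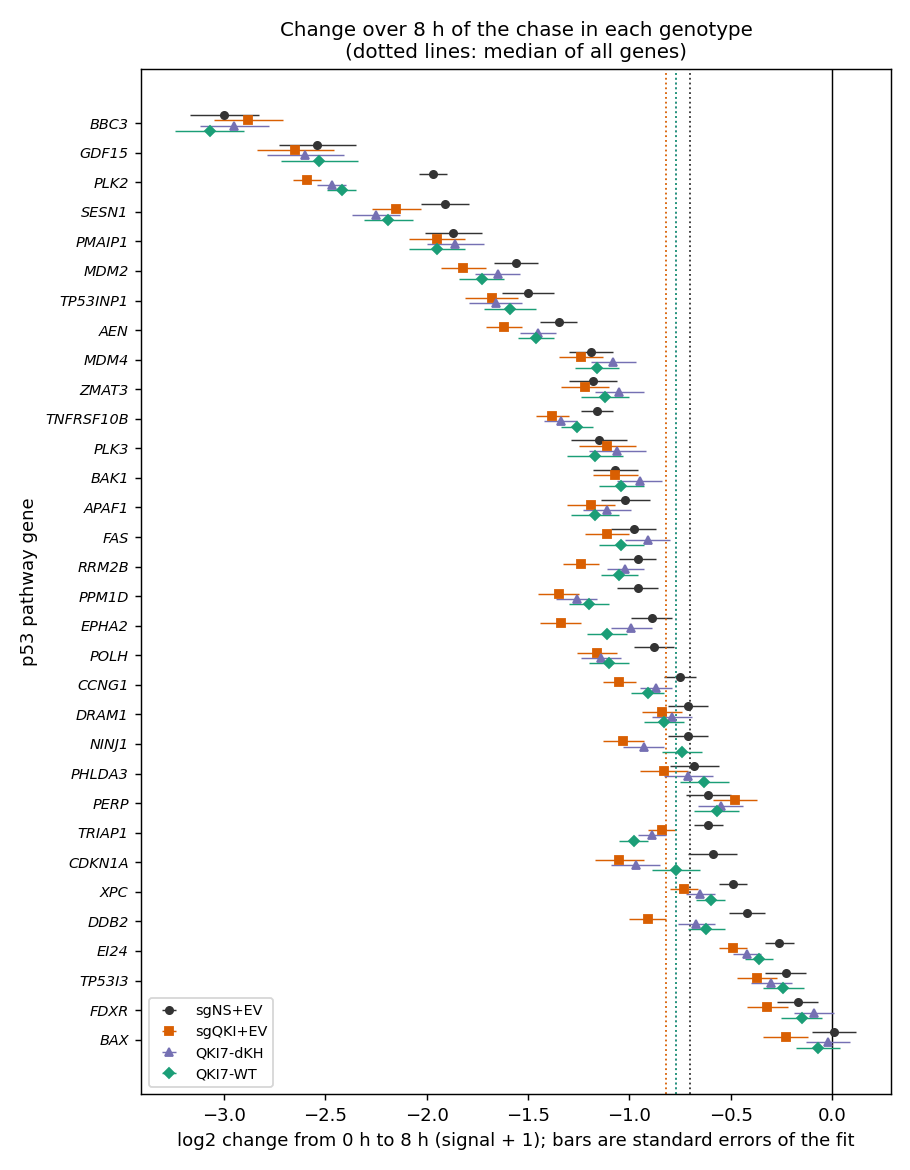
Log2 change from 0 h to 8 h for each of the 32 genes in the 4 genotypes, with the standard error of the fit as bars; dotted lines are the medians of all genes. BBC3 and GDF15 lie farthest left at -3.07 to -2.53 in every genotype, BAX lies at -0.23 to 0.01, and PLK2 in sgNS+EV (-1.97) stands to the right of the other genotypes.

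Before the chase, 1 of the 32 transcripts differed between sgQKI+EV and sgNS+EV cells. It was GDF15, lower in sgQKI+EV, where 1.37% of all genes were lower. Its signals were 16.9 and 15.4 in sgQKI+EV and 28 and 27.8 in sgNS+EV. The groups did not overlap, and the difference was -0.75 ± 0.19 log2 (limma, adjusted p = 0.0447). This call was lost without any 1 of the 4 libraries (sgNS+EV 0h replicate 1 or 2, sgQKI+EV 0h replicate 1 or 2; adjusted p 0.12 to 0.389) and under library totals (0.0743) and quantile normalisation (0.0564). At 0 h it had 15.8 and 18.5 in QKI7-WT, with 19.2 and 18.1 for QKI7-dKH, so that all 6 libraries with the QKI guide lay below both control libraries. BBC3 (-0.42 ± 0.17, 0.238) did not pass. MDM2 at 0 h had 43.2 and 42 in sgQKI+EV, within the range of the control libraries, and PPM1D had 58.8 and 57.1, which overlapped them. The median difference over the 32 genes was -0.11, beside -0.06 over all genes.

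After 8 h, 20 of 32 were lower in sgQKI+EV than in sgNS+EV, where 34.0% of all genes were lower. The median was -0.35 log2, beside -0.20, and none was higher. By role these were 4 of 5 genes grouped under arrest (GDF15 among them) and 7 of 14 death genes. They also held 3 of 4 repair genes, 1 of 3 regulators (PPM1D) and 5 of the remaining 6. PLK2 had 36.8 and 35.2 in sgQKI+EV against 54.1 and 56, separate groups differing by -0.60 ± 0.07 (limma, adjusted p = 7.35e-06). CDKN1A had 105 and 93.3 against 135 and 158, also separate, a difference of -0.55 ± 0.12 (0.0016). GDF15 had 1.98 and 1.49 against 2.74 and 5.62, without overlap, a difference of -0.87 ± 0.19 (0.00168). These GDF15 signals are low: the lowest value of any gene was 0.641, and the 1 added before the log shrinks such differences. BAX had 136 and 134 against 170 and 181 (-0.38 ± 0.11, 0.0146), and MDM2 had 10.9 and 11.9 against 14.9 and 13.2, which did not pass (-0.28 ± 0.11, 0.0533). The remaining members ran from -0.54 (CCNG1) to 0.03 (PMAIP1). Without sgNS+EV 8h replicate 2 the count fell from 20 to 12, and the GDF15 difference to -0.46 (0.0787). CDKN1A, CCNG1, XPC, DDB2, PLK2, TNFRSF10B, TRIAP1, EI24, EPHA2 and NINJ1 passed without any 1 of the 4 libraries. All 20 kept their sign under both other scalings, but 3 passed under library totals (GDF15, DDB2 and PLK2) and 5 under quantile normalisation, those 3 with SESN1 and TP53INP1.

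**Figure D4:**
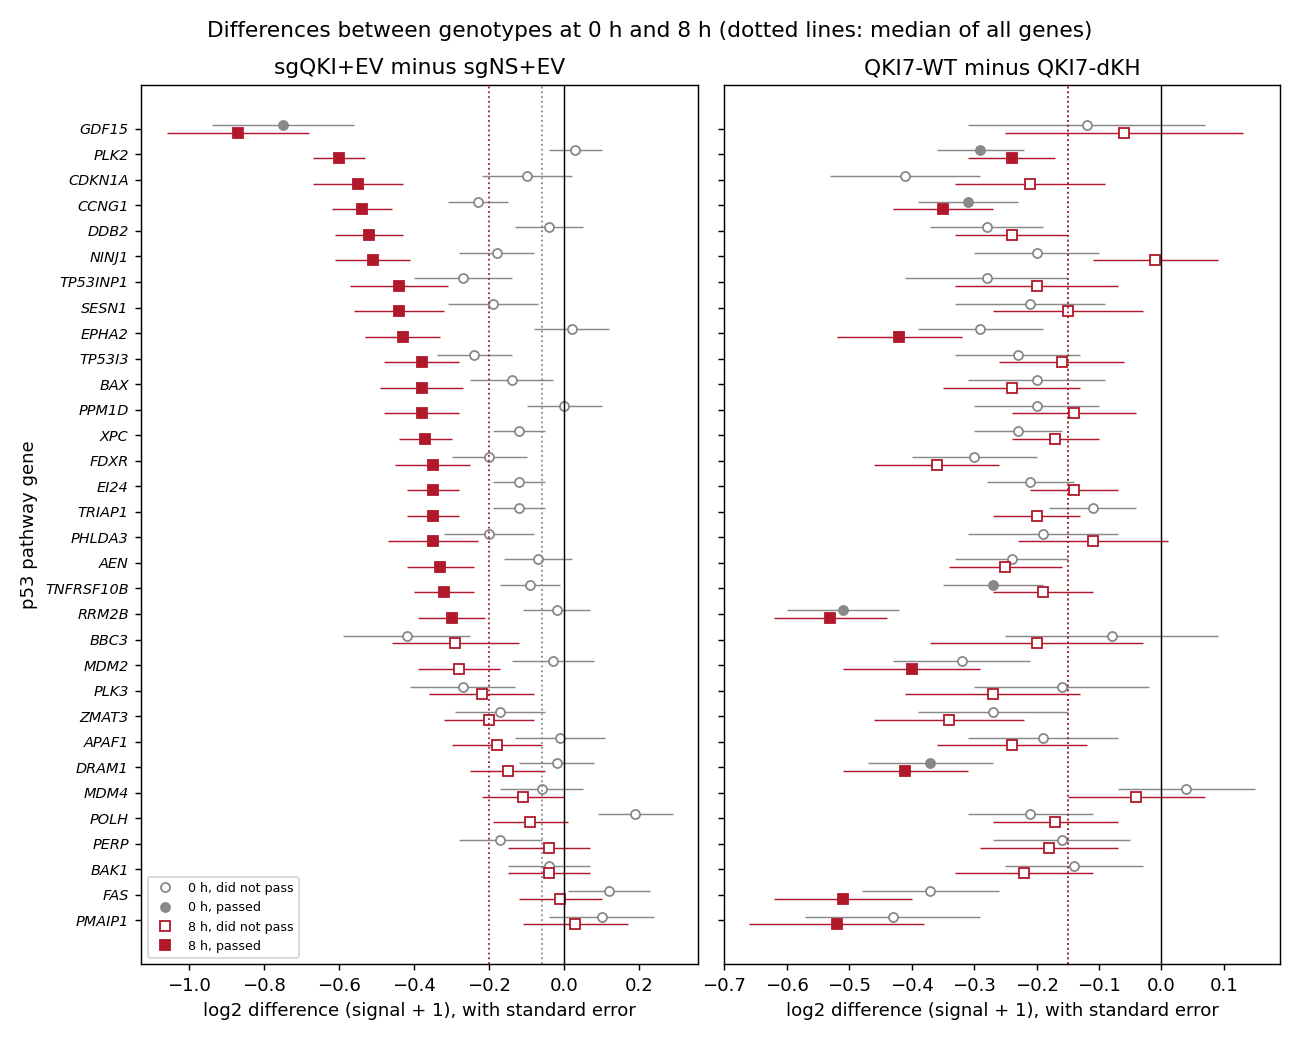
Log2 differences between genotypes at 0 h (circles) and 8 h (squares) with their standard errors, for sgQKI+EV minus sgNS+EV on the left and QKI7-WT minus QKI7-dKH on the right; filled symbols passed at an adjusted p below 0.05 and dotted lines are all-gene medians. On the left, 20 squares and 1 circle are filled; on the right, 8 squares and 5 circles are filled.

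Whether loss itself differed was tested as an interaction, the change from 0 to 8 h in sgQKI+EV minus that in sgNS+EV. It uses the same libraries as the comparisons at 0 and 8 h, so it is not separate evidence. PLK2 alone passed, as 0.669% of all genes did in that direction. Its 0 h signals, 224 and 221 in sgQKI+EV and 208 and 230 in sgNS+EV, overlapped, and its 8 h signals did not. It kept 16.2% in sgQKI+EV and 25.2% in sgNS+EV, a decay difference of -0.62 ± 0.09 log2 (limma, adjusted p = 0.00635). It passed under library totals (-0.53, 0.00732) and quantile normalisation (-0.42, 0.00184). It did not pass without sgNS+EV 0h replicate 1, sgNS+EV 8h replicate 2, sgQKI+EV 0h replicate 1 or sgQKI+EV 8h replicate 2, and over the 8 removals the adjusted p ran from 0.00979 to 0.0825. DDB2 (-0.48 ± 0.12, 0.0649), CDKN1A (-0.46 ± 0.17, 0.188) and EPHA2 (-0.45 ± 0.13, 0.117), a receptor tyrosine kinase, did not pass. Over the 32 genes 29 values were below 0, as were 9916 of all 12547. The median was -0.23, beside -0.14 over all genes, and 21 of the 32 lay below the all-gene median. With both QKI7 vectors PLK2 kept a share near that in sgQKI+EV, with 18.3% left for QKI7-WT and 17.7% for QKI7-dKH; neither was tested against sgNS+EV.

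Between the add-back lines no difference in loss over 8 h was detected. For QKI7-WT against QKI7-dKH no member passed the interaction test in limma, and none had an unadjusted p below 0.05, as 120 of all genes had. The 32 differences ran from -0.14 to 0.20 log2 with SEs of 0.09 to 0.26, so differences of that order cannot be told from none. The levels did differ for some. At 0 h 5 were lower in QKI7-WT, where 3.71% of all genes were: RRM2B (-0.51 ± 0.09, adjusted p = 0.00327), DRAM1, an autophagy regulator (-0.37 ± 0.10, 0.0385), CCNG1 (-0.31 ± 0.08, 0.0419), PLK2 (-0.29 ± 0.07, 0.0238) and TNFRSF10B (-0.27 ± 0.08, 0.0489). At 8 h 8 were lower, where 4.84% of all genes were. These were RRM2B (-0.53 ± 0.09, 0.00139), PMAIP1 (-0.52 ± 0.14, 0.0384), FAS (-0.51 ± 0.11, 0.00914), EPHA2, DRAM1, MDM2, CCNG1 and PLK2, the last 5 from -0.42 to -0.24.

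RRM2B had signals of 85.5 and 71.4 in QKI7-WT against 112 and 111 in QKI7-dKH at 0 h, and 36.7 and 37.7 against 53.8 and 54.8 at 8 h. The groups were separate at both times. At 0 h DRAM1 had 14.1 and 12.5 against 17.5 and 17.5, and CCNG1 had 243 and 217 against 291 and 280, again without overlap. FAS had 10 and 8.88 against 13.3 and 14.4 at 8 h, and PMAIP1 15 and 14.4 against 20.5 and 22.6, also without overlap. MDM2 had 11.3 and 11.4 in QKI7-WT against 14.9 and 15.8 in QKI7-dKH at 8 h (-0.40 ± 0.11, limma, adjusted p = 0.0407). The median difference over the 32 genes was -0.23 at 0 h and -0.22 at 8 h, beside -0.15 over all genes at both times. The count at 0 h was 1 without QKI7-WT 0h replicate 1, 3 without QKI7-WT 0h replicate 2, 0 without QKI7-dKH 0h replicate 1 and 2 without QKI7-dKH 0h replicate 2. At 8 h it was 3 without either replicate 1 and 1 without either replicate 2 of QKI7-WT or QKI7-dKH at 8 h. RRM2B at 8 h was the only one of these differences that passed without any 1 library. Every one kept its sign under library totals and quantile normalisation, where none passed at 0 h and 3 and 1 at 8 h.

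The first 4 h showed a different pattern from the whole 8 h. These comparisons were added after the values were seen. From 0 to 4 h, 6 members fell further in sgQKI+EV than in sgNS+EV, where 8.89% of all genes did: PMAIP1 (-0.66 ± 0.20, limma, adjusted p = 0.0431), MDM2 (-0.64 ± 0.16, 0.0347), PPM1D (-0.53 ± 0.14, 0.0347), RRM2B (-0.49 ± 0.12, 0.0347), CCNG1 (-0.43 ± 0.12, 0.0363) and PLK2 (-0.38 ± 0.09, 0.0347). At 4 h MDM2 had 16.3 and 16.2 in sgQKI+EV against 27.1 and 25.5 in sgNS+EV, and CCNG1 had 155 and 151 against 249 and 235. PMAIP1 had 29.8 and 31.6 against 45.5 and 46.1, and PPM1D 29 and 27 against 42.3 and 39.5. None of these 4 overlapped at 4 h, but they were named because they passed, so this is not separate evidence. By 8 h the gap in loss for MDM2 (-0.26 ± 0.16, 0.411) and PMAIP1 (-0.07 ± 0.20, 0.892) no longer passed. Of the 6 calls 0 remained without any 1 of 6 of the 8 libraries, namely sgNS+EV 0h replicate 2, sgNS+EV 4h replicates 1 and 2, sgQKI+EV 0h replicate 1 and sgQKI+EV 4h replicates 1 and 2. There were 2 calls without sgQKI+EV 0h replicate 2, and PLK2 did not pass without any 1 of the 8. All 6 passed under library totals, and 5 under quantile normalisation, where PMAIP1 did not (0.0519).

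In QKI7-WT against QKI7-dKH, 5 members fell less over 4 h, a share close to the 16.0% of all genes that did: PMAIP1 (0.63 ± 0.20, limma, adjusted p = 0.0412), CCNG1 (0.52 ± 0.12, 0.0288), RRM2B (0.51 ± 0.12, 0.0288), PPM1D (0.48 ± 0.14, 0.033) and XPC (0.29 ± 0.10, 0.0479). The median over the 32 genes was 0.21, beside 0.24 over all genes. The QKI7-WT libraries at 4 h disagreed with each other. PMAIP1 had 45.9 in replicate 1 and 28.9 in replicate 2, against 32.7 and 30.6 in QKI7-dKH, and CCNG1 had 234 and 188 against 187 and 177. PPM1D had 42.1 and 31.1 against 30.3 and 28.8. So replicate 1 lay near sgNS+EV and replicate 2 near QKI7-dKH for these genes. Without QKI7-WT 4h replicate 1 no member passed, and without replicate 2, 13 of 32 did, as did 5181 of all 12547 genes. No call was left either without QKI7-WT 0h replicate 2 or without any 1 of the 4 QKI7-dKH libraries at 0 and 4 h. Under library totals, quantile normalisation or a fit to the compared groups alone, none of the 5 passed.

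These 4 h differences followed the base composition of the 3′ UTR and, less closely, its length and ATTTA density. Spearman's rho between GC content and the decay difference over 4 h was 0.88 across the 32 genes for sgQKI+EV against sgNS+EV, and 0.66 across 11190 genes. For QKI7-WT against QKI7-dKH it was -0.75 and -0.53. With 3′ UTR length rho was -0.48 and -0.39 in the first comparison and 0.59 and 0.25 in the second. With ATTTA sites per kilobase it was -0.47 and -0.50 in the first and 0.31 and 0.37 in the second. The genes share the same libraries, so these are descriptions. Among the 16 genes with the lowest GC, 32.2% to 43.2%, all 16 had fallen further in sgQKI+EV, with a median of -0.40 log2. Among those with 43.8% to 63.3%, 13 of 16 had fallen less, with a median of 0.19. Over 8 h rho with GC content was 0.05 and 0.10 across the 32 genes in the 2 comparisons. The medians of these low- and high-GC sets were then -0.20 and -0.23 for sgQKI+EV against sgNS+EV.

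By library, rho between GC content and the change from 0 h to 4 h was -0.33 and -0.22 in sgNS+EV and -0.11 in QKI7-WT replicate 1. It was 0.41 in QKI7-WT replicate 2, 0.45 and 0.38 in sgQKI+EV, and 0.37 and 0.46 in QKI7-dKH. At 8 h all 8 libraries lay between 0.24 and 0.34. The 3 libraries with a negative rho at 4 h are thus 2 of sgNS+EV and 1 of QKI7-WT, and over all genes the same 3 were negative (-0.33, -0.25 and -0.16). The part of this base-composition shift in the 4 h differences was not tested.

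**Figure D5:**
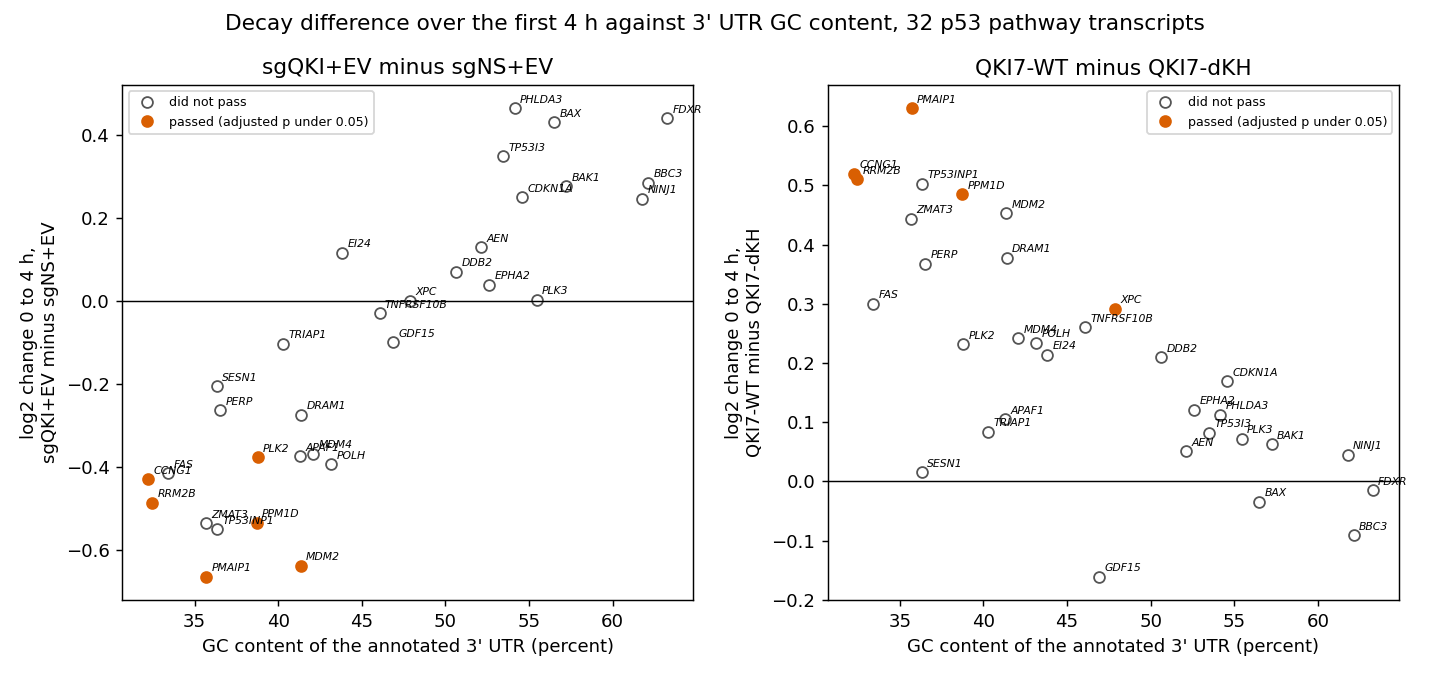
Decay difference from 0 to 4 h (log2) against the GC content of the annotated 3′ UTR (percent), 1 point per gene, for sgQKI+EV minus sgNS+EV on the left and QKI7-WT minus QKI7-dKH on the right; filled points passed at an adjusted p below 0.05. Points rise with GC on the left (rho 0.88) and fall on the right (rho -0.75), and all 6 filled points on the left lie below 42% GC.

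Other genes of the pathway were read from a pair of wider lists: 65 further p53 targets of 74 named, and 25 of 27 genes that act on p53. In sgNS+EV 60 of 65 and 24 of 25 fell over 8 h (88.2% of all genes). The immediate-early gene IER5 changed by -4.29 log2, the antiproliferative BTG2 by -2.35 and the sestrin SESN2 by -2.22. Among genes acting on p53, the kinase DYRK2 changed by -1.93, the ubiquitin ligase SIAH1 by -1.83 and the acetyltransferase EP300 by -1.74. At 8 h, 31 of 65 and 16 of 25 were lower in sgQKI+EV than in sgNS+EV (34.0% of all genes). BTG2 (-0.64 ± 0.15, limma, adjusted p = 0.0434) and the replication clamp PCNA (-0.53 ± 0.09, 0.0139) were the 2 further targets with a larger fall in sgQKI+EV over 8 h, where 0.669% of all genes had one. Over 4 h, 5 of 65 and 4 of 25 fell further in sgQKI+EV (8.89% of all genes), and 9 of 65 and 7 of 25 fell less in QKI7-WT than in QKI7-dKH (16.0%). In QKI7-WT against QKI7-dKH, 12 of 65 targets were lower at 0 h and 16 at 8 h (3.71% and 4.84% of all genes), and 0 of 25 genes acting on p53 at either time.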

How the data were processed

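The deposited table gave, per gene and library, a linear signal scaled by the authors to ERCC spike-ins; that reading rests on the near-constant ERCC sums. STAR, RSEM and GRCh38 are named, with no version, in the submitters' processing notes, and the libraries were made with a stranded mRNA kit per the labels' protocols. The unit before scaling and the read depth are not given in the sources used here, so no counting interval is possible and precision came from replicates. Of 12585 rows, 38 were ERCC. The lowest value was 0.641.

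Values were analysed as log2(signal + 1). A filter of 1 in 2 libraries removed 0 rows. Group means for 12 groups were fitted to 24 libraries in limma 3.58.1 (R 4.3.3) with a mean-variance trend, with 12 residual and 9 prior degrees of freedom. Tests were two-sided, and p-values adjusted by Benjamini-Hochberg over 12547 genes. The median SE was 0.11 log2 for a change and 0.15 for a decay difference. The procedure was tested on simulated data with independent errors for each gene. Shifts shared by many genes of a library were not simulated, so this does not show how such shifts affect the calls.

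The plan held 12 comparisons, and 2 over the first 4 h were added. Signals per library were printed for MDM2, MDM4, CDKN1A, BBC3, GDF15, BAX, PPM1D, PLK2 and the 3 largest changes per direction that passed; single values of other members named beside them were chosen after they were seen. Members and lists were chosen with earlier results of these data known. The alternatives were library totals, quantile normalisation, a pseudocount of 0.1, no filter, a filter of 10, a replicate block, the compared groups alone, a fold of at least 1.5, and leaving out each library.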

Additional observations from a re-analysis of the deposited data

Results flagged for a closer look

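In 12 cases the loss of a transcript differed between genotypes by the interaction test of limma (Benjamini-Hochberg adjusted over all genes). Over 8 h the difference between sgQKI+EV and sgNS+EV was -0.62 log2 for PLK2 (adjusted p = 0.00635), where 0.669% of all genes passed in that direction.

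Over the first 4 h, in the same pair of genotypes, the differences were -0.66 for PMAIP1 (0.0431), -0.64 for MDM2 (0.0347), -0.53 for PPM1D (0.0347), -0.49 for RRM2B (0.0347), -0.43 for CCNG1 (0.0363) and -0.38 for PLK2 (0.0347), where 8.89% of all genes passed. For QKI7-WT against QKI7-dKH over 4 h they were 0.63 for PMAIP1 (0.0412), 0.52 for CCNG1 (0.0288), 0.51 for RRM2B (0.0288), 0.48 for PPM1D (0.033) and 0.29 for XPC (0.0479). These are 5 of 32 members, a share close to the 16.0% of all genes that passed. PMAIP1, CCNG1, RRM2B and PPM1D stand in both 4 h sets with opposite signs. Each of the 12 was lost without at least 1 of the 8 libraries it rests on. The correlation of the 4 h differences with 3′ UTR GC content (0.88 and -0.75 over 32 genes) moves with them, and its part was not tested.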

How the results depend on the processing

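Many calls depend on the spike-in scale, both those of change with time and those between genotypes. The sign changes below lie in the changes with time. There the other scalings take out much of the loss shared by most genes, so they cannot test whether a gene fell. Over 220 member values that passed in the 14 comparisons, 141 kept sign and threshold under library totals, 57 fell below the threshold and 22 changed sign. Under quantile normalisation these were 103, 72 and 45. Of the level differences, library totals kept 0 of 1 and 3 of 20 for sgQKI+EV against sgNS+EV at 0 and 8 h. For QKI7-WT against QKI7-dKH 0 of 5 and 3 of 8 were kept. Of the decay differences, 1 of 1 over 8 h and 6 of 6 over 4 h were kept for sgQKI+EV, and 0 of 5 over 4 h for QKI7-WT. Pseudocount 0.1 kept 218, the compared groups alone 211, and no filter and the replicate block all 220; a filter of 10 kept 214 of 214. BAX from 0 to 4 h turned to 0.05 (library totals) and 0.04 (quantile). Depth is unknown, and what it limits was not tested.

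Listed here are counts of members past the threshold that differ from the reported count by more than 1.5 times, or where either is 0. A fold limit applies only where a fold is named. For falls over 8 h under quantile normalisation the counts were 15 in sgNS+EV, 19 in sgQKI+EV, 18 in QKI7-dKH and 16 in QKI7-WT. Over all 12547 genes these falls were 3381, 3743, 3586 and 3600 in that order. Rises over 8 h, 0 as reported, were 4 and 8 (library totals, quantile) in sgNS+EV, 3 and 7 in sgQKI+EV, 4 and 7 in QKI7-dKH and 4 and 7 in QKI7-WT. Over all genes rises were 1616 and 4161, 1562 and 4531, 1703 and 4291, and 1474 and 4274 in that order. From 0 to 4 h, falls were 13 and 14 and rises 2 and 2, and falls were 11 with a fold of at least 1.5. Over all genes falls were 2160 and 2386 and rises 2214 and 2928 under library totals and quantile. From 4 to 8 h, falls were 7 (quantile) and 11 (fold), and rises 5 and 10, and 0 with the fold. Over all genes quantile gave 3250 falls, and rises were 845 and 3132 under library totals and quantile. In sgQKI+EV against sgNS+EV at 0 h, lower counts were 0 under library totals, quantile and pseudocount 0.1, and 7 with the compared groups alone. Higher counts were 2 and 1 under library totals and quantile. Over all genes 1184 were lower with the compared groups alone, and 930 and 325 higher under library totals and quantile. At 8 h lower counts were 3, 5 and, with the fold, 2, where 252 and 651 of all genes were lower under library totals and quantile. In QKI7-WT against QKI7-dKH lower counts were 0, 0 and 0 at 0 h and 3, 1 and 0 at 8 h, and 14 at 8 h with the compared groups alone. Over all genes library totals and quantile gave 38 and 93 at 0 h and 177 and 146 at 8 h. The compared groups alone gave 1679 at 8 h. Decay differences in sgQKI+EV over 8 h gave 9 lower with the compared groups alone, where 1343 of all genes were lower. Over 4 h they gave 15 lower under library totals and 2 with the fold, and 2 higher (quantile), 1 (filter of 10) and 4 (compared groups). Over all genes 4715 were lower under library totals, and 1092, 320 and 1003 were higher in those 3 settings. QKI7-WT against QKI7-dKH over 4 h gave 0, 0, 0 (compared groups) and 1 (fold) higher. Over all genes library totals, quantile and the compared groups also gave 0.

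Leaving out 1 library gave 28 to 30 falls over 8 h in sgNS+EV, 23 to 25 from 0 to 4 h, and 19 to 20 with 0 to 2 rises from 4 to 8 h. Over 8 h it gave 30 to 31 in sgQKI+EV, 29 to 30 in QKI7-dKH and 29 to 31 in QKI7-WT. In sgQKI+EV against sgNS+EV it gave 0 at 0 h and 12 to 17 at 8 h, and in QKI7-WT against QKI7-dKH 0 to 3 and 1 to 3. Decay differences gave 0 to 1 and 0 over 8 h, and 0 to 6 and 0 to 13 over 4 h. A lone library was assumed to vary like the other groups.

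Replicate numbers did not pair the libraries: over 66 pairs of groups the correlation of same-numbered deviations ran from -0.424 to 0.483, median -0.0172. With the number as a block, lower counts were 30, 30 and 22 (2 higher) in sgNS+EV over 0 to 8, 0 to 4 and 4 to 8 h, 31, 30 and 30 in the other genotypes, 1 and 21 for sgQKI+EV against sgNS+EV, and 7 and 9 for QKI7-WT against QKI7-dKH. Decay differences under the block gave 1 and 0 over 8 h, and 9 lower (1 higher) and 8 higher over 4 h. Over all genes the block gave 191 and 4460 lower for sgQKI+EV against sgNS+EV, and 557 and 775 for QKI7-WT against QKI7-dKH. Its decay differences over all genes were 108 and 0 lower over 8 h. Over 4 h they were 1599 lower (323 higher) and 2740 higher.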
